A study of Mus musculus with 24 samples.

Results

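The accessible chromatin of 2 classes of mature cortical pyramidal neuron was compared at postnatal day 48 (P48). The members are the 57478 peaks that the authors listed for Cux2 callosal projection neurons (Cux2 CPNs, 45642 peaks) and for Tle4 corticothalamic projection neurons (Tle4 CThPNs, 11836 peaks) on chromosomes 1 to 19 and X, out of 292908 peaks in the 12 lists of the series. A peak was class-only when no peak of the other list overlapped it by at least 1 bp, and shared otherwise. By that rule 35594 Cux2 peaks were Cux2-only and 1858 Tle4 peaks were Tle4-only.

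The study followed both classes through 6 ages by ATAC-seq, an assay whose transposase cuts and tags DNA where chromatin is open, so that accessible sites appear as peaks of reads. The labels give the Cux2 cells as Cux2-CreERT2:Ai14 and the Tle4 cells as Tle4-2A-CreERT2:Ai14, both on C57BL/6, from somatosensory and motor cortex. Both groups shared the Ai14 reporter and the 4-hydroxytamoxifen given to the pregnant mother, which switched on tdTomato in cells with an active Cre driver, and tdTomato-positive cells were then sorted. Each group held 2 replicate libraries, but each deposited list pools them, so that error between replicates cannot be given here. The study's methods give a nominal sequencing depth, but the reads behind each list were not analysed here. Each library pooled several animals of both sexes, and according to the study's methods the Cux2 driver also marks some cortical interneurons, which were a small part of the labelled cells in single-cell data of both lines together.

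CPNs of the upper layers send axons across the corpus callosum to the other hemisphere, and CThPNs of layer 6 send them to the thalamus. Cux2 encodes a homeodomain transcription factor used as a marker of upper layers, and Tle4 encodes a corepressor of the Groucho family that marks layer 6 corticothalamic neurons. Accessible sites lie at promoters, which many cell types share, and at distal elements such as enhancers, which tend to differ between cell types.

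Windows of 200 bp around the summits of a few class-only peaks are given as examples. They were picked by strength, by marker gene or by core, so they do not stand for the whole sets. The windows are given from the plus strand of NCBIM37 (mm9), with matches to the 17 searched motifs in capitals. The strongest Cux2-only peak by −log10 p outside promoters lay in an intron of Eml1. It was 14273 bp from the start site and held an AP-1 core. That core was searched as TGANTCA, which takes in TGACTCA, bound by FOS and JUN factors, and also TGATTCA and TGAATCA. The Eml1 peak had a fold enrichment of 22.6, and its site was also listed in 4 of the 5 other Cux2 lists and in the Tle4 list of P21. The third strongest lay 24109 bp from Zpld1, in 4 Cux2 lists and no Tle4 list, with an E-box CAGATG, a core bound by bHLH factors such as NEUROD2.
Cux2-only, Eml1 intron, chr12:109634379-109634578: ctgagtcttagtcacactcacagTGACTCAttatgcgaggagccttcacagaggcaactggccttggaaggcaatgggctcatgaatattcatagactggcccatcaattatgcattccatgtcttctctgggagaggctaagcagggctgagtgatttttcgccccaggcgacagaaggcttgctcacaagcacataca
Cux2-only, near Zpld1, chr16:55322108-55322307: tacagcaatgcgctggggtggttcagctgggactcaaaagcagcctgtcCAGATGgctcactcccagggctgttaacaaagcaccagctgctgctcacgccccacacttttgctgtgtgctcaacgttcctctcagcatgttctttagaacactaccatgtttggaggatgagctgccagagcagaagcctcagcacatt

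The 3 strongest Tle4-only distal peaks had lower −log10 p, and their windows held no searched motif. The first lay 230784 bp from Grik2, a kainate receptor subunit gene, with a fold enrichment of 12.1, and was listed in Tle4 CThPNs at P21 and P48 and in no Cux2 list. The third lay 19343 bp from Lrrc10. Its window was a simple repeat made of C, T and G, and its site was also listed in Cux2 CPNs at P21.
Tle4-only, near Grik2, chr10:48592853-48593052: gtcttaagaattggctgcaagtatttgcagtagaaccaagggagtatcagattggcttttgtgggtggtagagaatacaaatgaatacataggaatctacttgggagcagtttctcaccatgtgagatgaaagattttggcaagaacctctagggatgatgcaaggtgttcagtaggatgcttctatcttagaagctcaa

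The strongest Cux2-only peak of the Cux2 gene (chr5:122308396-122500111, minus strand) lay 0.294 kb from an internal start site, had a fold enrichment of 12.9 and held both cores. The strongest Tle4-only peak among the corticothalamic markers lay 13.8 kb from Rprm (chr2:53936504-53937963), a gene of layer 6 neurons, with a fold enrichment of 12.4 and the E-box on the minus strand.
Cux2-only, Cux2, chr5:122366937-122367136: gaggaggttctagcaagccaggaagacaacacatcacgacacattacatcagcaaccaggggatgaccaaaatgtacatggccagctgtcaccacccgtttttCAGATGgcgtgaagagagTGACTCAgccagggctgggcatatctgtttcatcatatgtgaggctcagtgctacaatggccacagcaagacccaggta
Tle4-only, Rprm, chr2:53924038-53924237: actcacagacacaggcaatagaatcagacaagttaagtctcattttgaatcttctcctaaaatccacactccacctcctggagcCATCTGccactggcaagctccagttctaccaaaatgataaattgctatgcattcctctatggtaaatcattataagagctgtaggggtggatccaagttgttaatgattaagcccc

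The final pair shows a core that was more frequent in each set, described further on. It is the strongest Cux2-only distal peak with a POU core (ATGCAAAT, the octamer bound by POU factors), in an intron near 6330439K17Rik with a fold enrichment of 20.2. It is set beside the strongest Tle4-only distal peak with a CUX core (ATCGAT, bound by CUX factors), in an intron near Pcnt with a fold enrichment of 15.9.
Cux2-only, POU core, chr2:144305155-144305354: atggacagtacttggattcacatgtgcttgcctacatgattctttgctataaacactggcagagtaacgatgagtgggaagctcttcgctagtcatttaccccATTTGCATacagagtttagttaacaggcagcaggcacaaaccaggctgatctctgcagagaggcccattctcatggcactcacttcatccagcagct
Tle4-only, CUX core, chr10:75893111-75893310: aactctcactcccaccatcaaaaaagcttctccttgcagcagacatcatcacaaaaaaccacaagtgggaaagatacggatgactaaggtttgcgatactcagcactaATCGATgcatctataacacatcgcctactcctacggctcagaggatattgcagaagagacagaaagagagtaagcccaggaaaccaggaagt

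The first question was how far the accessible sites of the classes coincide. Of the Cux2 peaks 78% were Cux2-only (Wilson 95% interval 77.6% to 78.4%), and 15.7% of the Tle4 peaks were Tle4-only (15.1% to 16.4%). The shared sites were 10048 Cux2 peaks and 9978 Tle4 peaks, since overlaps were not all 1 to 1. Shared sites therefore made up 22% of the Cux2 list and 84.3% of the Tle4 list. Cux2-only peaks covered 22.5 Mb and Tle4-only peaks 1.29 Mb. Intervals here and below cover counting error only.

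These unequal shares go with unequal list lengths, since the Cux2 list was 3.86 times as long. The caller's running numbers in the peak names reached 164795 in the Cux2 list and 154441 in the Tle4 list, which is the least number of candidate peaks before the filter for reproducibility. The lists held 27.7% and 7.67% of those numbers. The Cux2 list ended at a −log10 p of 14.3 and the Tle4 list at 19.8. When the Cux2 list was reduced to its 11836 strongest peaks, 50.7% of them were Cux2-only and 50.6% of the Tle4 peaks were Tle4-only. At that length 4135 Tle4 peaks counted as Tle4-only although they overlapped a weaker Cux2 peak. With a common minimum −log10 p the shares were 70.3% and 24%, so the Cux2 excess shrank but kept its direction. The near-equal shares at equal length are fixed by the construction, since overlaps pair peaks almost 1 to 1, and they do not show whether either class has more sites of its own. Whether the lengths differ through depth, replicate agreement or accessibility was not tested.

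Class-only sites were the weaker sites of both lists. In the strongest 10% of the Cux2 list 1455 of 4564 peaks were Cux2-only (31.9%), which rose to 94.9% in the weakest 10%. In the Tle4 list the share ran from 14 of 1184 peaks (1.18%, 0.706% to 1.97%) in the strongest 10% to 27.2% in the weakest. Fold enrichment, the signal over the local background, had a median of 8.79 in Cux2-only peaks against 11.2 in shared peaks of the same list. In the Tle4 list the medians were 9.42 and 9.37, so there the 2 sets differed in −log10 p (22.8 against 26.2) and not to that extent in fold.

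**Figure D1:**
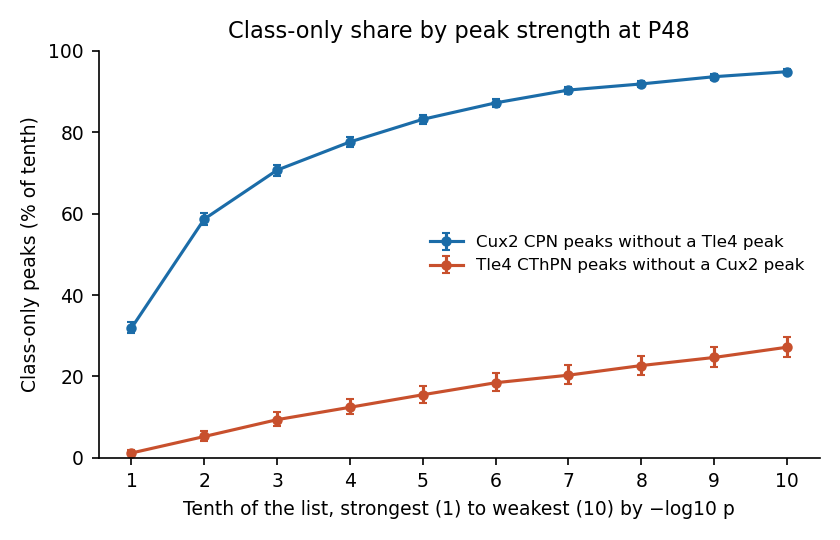
Share of class-only peaks (y axis, percent with Wilson 95% intervals) in successive 10% steps of the Cux2 CPN list (blue) and the Tle4 CThPN list (red), from the strongest to the weakest peaks by −log10 p (x axis). The Cux2 share rises from 31.9% to 94.9% and the Tle4 share from 1.18% to 27.2%, and the Cux2 share is the higher one at each step.

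Few class-only peaks were near misses. A peak of the other list lay within 500 bp of 191 Cux2-only peaks (0.537%) and of 37 Tle4-only peaks (1.99%). The median gap to the other list was 55930 bp for Cux2-only and 17116 bp for Tle4-only peaks, where the other list is the longer. Just inside the rule, only 5 shared Cux2 peaks had an overlap of 50 bp or less, and the median overlap was 633 bp.

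Shared sites were also compared by rank. Across the 10048 shared Cux2 peaks the fold enrichment of both lists had a Spearman correlation of 0.60, which is a description over peaks that are not independent. Ranked within its own list, a site stood more than 50 percentile points higher in the Cux2 list at 1622 peaks and in the Tle4 list at 132. Shared sites had a median percentile of 79.8 in the Cux2 list and 54.1 in the Tle4 list, so an excess of higher Cux2 ranks is built into lists of such unequal length, and the ranks are a description. The largest rank differences with the higher rank in the Cux2 list were at introns of Pcdh9, a protocadherin gene (fold enrichment 13.5 against 7.27), of Nsun2 (15.2 against 7.97) and of P4htm (14.4 against 6.49). Those with the higher rank in the Tle4 list were at the promoters of Pex16 (5.92 against 12.9), Actr1a (4.76 against 9.40) and Slc27a1 (5.01 against 9.54). The strongest shared peaks were promoters near Fbxo48, Hip1 and Stra13, and each of them was listed in all 12 lists of the series.

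Along the genome, Cux2-only peaks made up 74.7% to 81.8% of the Cux2 peaks of each chromosome. Tle4-only peaks made up 12.1% to 19% on the autosomes and 7.29% on chromosome X (14 of 192 peaks, 4.39% to 11.9%). The X value was the lowest of the 20 chromosomes, and its interval lies below the 15.7% of the whole list. So does that of chromosome 17 (12.1%, 9.43% to 15.4%), and no allowance was made for reading 20 values.

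The second question was where in genes the sets lie. A promoter peak reached within 1 kb of an annotated start site. With all peaks, promoters held 5752 Cux2-only peaks (16.2%, 15.8% to 16.5%), 147 Tle4-only peaks (7.91%, 6.77% to 9.23%) and 4395 shared peaks of the Cux2 list (43.7%, 42.8% to 44.7%). Intronic summits made up 40.9% of Cux2-only, 41.9% of Tle4-only and 25% of shared peaks, and intergenic ones 40.1%, 47.7% and 29.5%. Exons away from promoters took 1.72% to 2.83% in each set. Distal Cux2-only and Tle4-only peaks lay at similar median distances from the nearest protein-coding start site, 38.5 kb and 38.9 kb.

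The order of the class-only sets depended on list length. At equal length promoters held 11.4% of Cux2-only peaks (10.6% to 12.2%) and 25.7% of Tle4-only peaks (24.6% to 26.8%), the reverse of the order with all peaks. Shared peaks remained the richest in promoters, at 50.8%. The promoter share of Cux2-only peaks was 7.9% in the strongest 10% of the list and 16.8% in the weakest. The higher promoter content of shared over class-only sites held under both lengths, and which class-only set held more promoters did not. The same contrast at the other ages also varied, with promoters a larger part of Cux2-only than of Tle4-only peaks at the 4 ages up to P7 and a smaller part at P21 (12.1% against 25.8%), where the Cux2 list was 5.72 times as long as the Tle4 list.

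**Figure D2:**
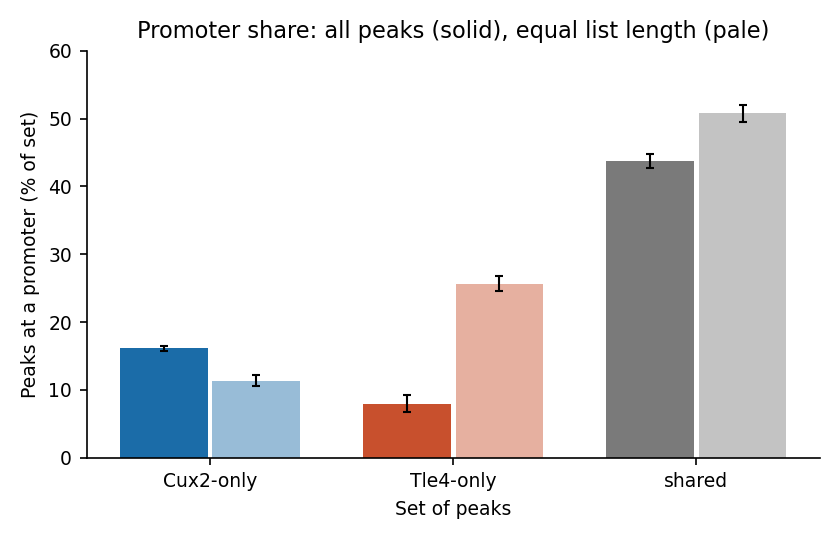
Promoter share (y axis, percent of each set, with Wilson 95% intervals) of Cux2-only, Tle4-only and shared peaks, with all peaks (solid bars) and with the Cux2 list reduced to the length of the Tle4 list (pale bars). Tle4-only peaks go from 7.91% to 25.7% and Cux2-only peaks from 16.2% to 11.4%, while shared peaks have the highest share in both.

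Among Cux2-only peaks the strongest promoter peaks were at Cngb3 (fold enrichment 22.3), at Akr1c18 (19.1) and 1221 bp from a start site of Krt73 (19.2), the first 2 of which were listed in Cux2 CPNs at P21 and P48 and in no other list. Among Tle4-only peaks the promoter of Arhgap22 had a fold enrichment of 11.1 and was listed in all 6 Tle4 lists and no Cux2 list. The next were at Atp8b2 (8.51), listed in Tle4 CThPNs at P21 and P48, and at H2-T22 (12.1), listed in 6 Tle4 and 3 Cux2 lists.

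GC content followed promoters. Distal windows had a median GC of 47% in Cux2-only, 45.5% in Tle4-only and 48% in shared peaks. Promoter windows had medians of 60%, 52% and 61%. The ratio of observed to expected CpG at promoters was 0.687, 0.373 and 0.772, so the 147 Tle4-only promoters were the poorest in CpG. At equal length this order reversed, with a median GC of 60.5% and a ratio of 0.722 at 1538 Tle4-only promoters against 58% and 0.636 at 682 Cux2-only promoters.

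The lists of the other ages were not used to define the sets, and they were searched for the P48 class-only sites. Cux2-only peaks of P48 were overlapped in the Cux2 lists of E18.5, P1, P3, P7 and P21 at 25.1%, 19.5%, 25.6%, 29.8% and 61.6%. The Tle4 lists of those ages overlapped 14.9%, 16%, 19.3%, 12% and 2.3% of them. The own class was higher at 5 of 5 ages, by a mean of 19.4 percentage points ± 22.9 (SD, n = 5 ages; p = 0.0625 by an exact two-sided permutation of signs, which can go no lower with 5 ages). Without P21 the mean was 9.45 points ± 6.22 (SD, n = 4 ages). The Tle4 list of P21 held 6538 peaks, the fewest of all lists.

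Tle4-only peaks of P48 were overlapped in the Tle4 lists of E18.5, P1, P3, P7 and P21 at 23.8%, 25.6%, 31.1%, 27.4% and 16.9%. The Cux2 lists overlapped 20%, 12.5%, 17%, 17% and 16.2% of them. The own class was again higher at 5 of 5 ages, by 8.40 points ± 5.88 (SD, n = 5 ages; p = 0.0625 by the same exact permutation test). At P21 the gap was 0.70 points. With every list reduced to 6538 peaks and the class-only sets drawn again, the means were 8.96 points for Cux2-only and 10.2 for Tle4-only peaks, each with the own class higher at 5 of 5 ages. P21 carried most of these means, with 38 and 36.4 points, while the 4 earlier ages gave 0.801 to 3.86 points for Cux2-only and 0.979 to 8.01 points for Tle4-only peaks.

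**Figure D3:**
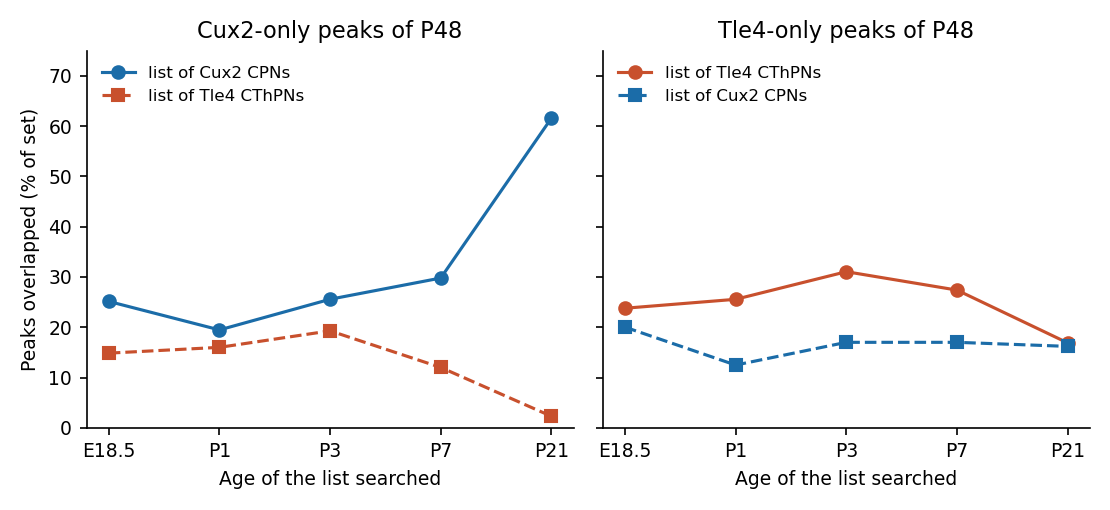
Share of the P48 class-only peaks (y axis, percent) overlapped by a peak in the lists of each earlier age (x axis), for Cux2-only peaks (left) and Tle4-only peaks (right), in Cux2 CPN lists (blue) and Tle4 CThPN lists (red). The own class lies above the other at each of the 5 ages, from 0.70 points for Tle4-only peaks at P21 to 59.3 points for Cux2-only peaks at P21.

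The history of single sites differed between the sets. Of the Cux2-only peaks 12398 (34.8%, 34.3% to 35.3%) were listed elsewhere only in Cux2 CPNs at P21, against 107 Tle4-only peaks (5.76%, 4.79% to 6.91%) listed elsewhere only in Tle4 CThPNs at P21. Peaks in no other list made up 23.3% of Cux2-only and 42% of Tle4-only sites. A site of the other class at some other age was met by 24.1% of Cux2-only and 36.1% of Tle4-only peaks, so a class-only peak at P48 was often not class-only over the series. Only 561 Cux2-only peaks (1.58%) and 34 Tle4-only peaks (1.83%) were listed in all 6 lists of their class and in none of the other. All of these shares depend on the lengths of the lists searched. Peaks listed only in the own class were rarely promoters (8.33% and 5.41%). Of the peaks listed in both classes at other ages, promoters made up 41.1% for Cux2-only and 13.2% for Tle4-only peaks.

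The third question was which genes lie near the class-only sites. A Cux2-only summit lay within 100 kb of a start site of 84% of the 22208 protein-coding genes and a Tle4-only summit of 16.5%, which is the background for the counts below. Any start site of a gene counts, so long genes with several of them reach more peaks. The background was not matched for gene length or number of start sites. Of the 20 upper layer callosal markers 20 had a Cux2-only peak and 0 a Tle4-only peak. The Tle4 list held 19 peaks within 100 kb of these genes, all of them shared. In the Cux2 list 150 of 169 peaks near them were Cux2-only, or 88.8% against 70.1% summed over all genes, where a peak counts once for each gene it is near. This excess was not particular to upper layer markers. The share was 83.5% near corticothalamic markers, 95.5% near astrocyte markers and 84.7% near sodium and calcium channel genes. Only the activity-regulated (68.5%), endothelial (66.7%) and housekeeping (67.5%) lists fell below the share over all genes.

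Among the upper layer markers, Cux2 itself had 19 Cux2-only peaks and no Tle4 peak of either kind within 100 kb of its start sites. The Cux2 lists held 16, 6, 9, 7 and 4 peaks there from E18.5 to P21, and the Tle4 lists 0, 1, 2, 1 and 0. Dkk3, which encodes a secreted Wnt modulator, had 15 Cux2-only peaks, and Unc5d, a netrin receptor gene of upper layers, had 13. Rasgrf2, a guanine nucleotide exchange factor gene of layer 2/3, had 11, of which the strongest had a fold enrichment of 15.7. That peak lay in an intron, 13.7 kb from an internal start site. Rorb, which encodes a nuclear receptor of layer 4, had 9, as did Cux1 and Wfs1. Otof had the fewest, 1 at its promoter with a fold enrichment of 15.3.

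The 14 corticothalamic markers had peaks of both kinds. A Tle4-only peak lay near 8 of 14 (57.1% against the 16.5% background), and 10 of the 23 Tle4 peaks near these genes were Tle4-only (43.5% against 10.3% summed over all genes). A Cux2-only peak lay near 13 of 14 (92.9%), about 1 gene more than the 84% background gives. Of the 79 Cux2 peaks near these genes 66 were Cux2-only (83.5% against 70.1% summed over all genes). Rprm had 2 Tle4-only peaks, with fold enrichments of 12.4 and 11.7, and the first of them was listed in all 6 Tle4 lists and in the Cux2 list of P21. A Cux2-only peak covered the start site of Rprm itself, with a fold enrichment of 9.12. Crym, a thyroid hormone binding protein gene, also had 2, in no other list, although these lay nearer to start sites of Anks4b and Zp2.

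At Tbr1, the T-box factor gene of layer 6, the promoter peak was Tle4-only with a fold enrichment of 4.76. It was listed in all 6 Tle4 lists and in the Cux2 lists of E18.5 and P7. Foxp2, a forkhead factor gene of layer 6, had 1 Tle4-only peak in an intron (8.72) and 3 Cux2-only peaks. Sla had a Tle4-only peak listed in 6 Tle4 lists and no Cux2 list, 56 kb from its start sites and inside Tg. Sox5, which encodes a factor of deep layer identity, had one in an intron (7.24) that was also listed at P21. Zfpm2 (6.29) and Hs3st4 (9.37) had one each, listed at no other age. Zfpm2 was the only gene of the list without a Cux2-only peak. Most of these Tle4-only peaks were weak by −log10 p. Their percentiles in the Tle4 list were 0.6 at Hs3st4, 6.87 at Tbr1, 15.3 at Zfpm2, 23.7 at Foxp2, 25.9 at Sla and 30.5 at Sox5. The strongest at Crym and Rprm stood at 48 and 87, and the median of all Tle4-only peaks was 32. Tle4 itself had no Tle4-only peak, because its promoter was shared, with a fold enrichment of 14.8 in the Cux2 list and 8.73 in the Tle4 list, and 2 Cux2-only peaks lay nearby. Sites near the Tle4 gene therefore did not mark the Tle4 list at P48, in which it had 1 peak against 3 to 8 in the earlier Tle4 lists.

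Markers of neighbouring deep layer classes were also met. The layer 5 subcerebral list had a Cux2-only peak at 7 of 7 genes and a Tle4-only peak at 3 of 7. Those with a Tle4-only peak were Deptor, and Fezf2 and Bcl11b, transcription factor genes of subcerebral neurons, at 33.3 kb and 46.2 kb from their start sites. The Fezf2 and Bcl11b Tle4-only peaks had fold enrichments of 7.13 and 8.77, and both were listed in Tle4 CThPNs at E18.5, P1, P3, P7 and P48 and in no Cux2 list. Fezf2 and Bcl11b also had 2 Cux2-only peaks each within 100 kb, the strongest of them with fold enrichments of 11.3 and 11.4. Of 5 subplate and layer 6b markers 4 had a Cux2-only peak and 2 a Tle4-only peak, Cplx3 and Nxph4. Each of these Tle4-only sites was also listed in Cux2 CPNs at another age.

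**Figure D4:**
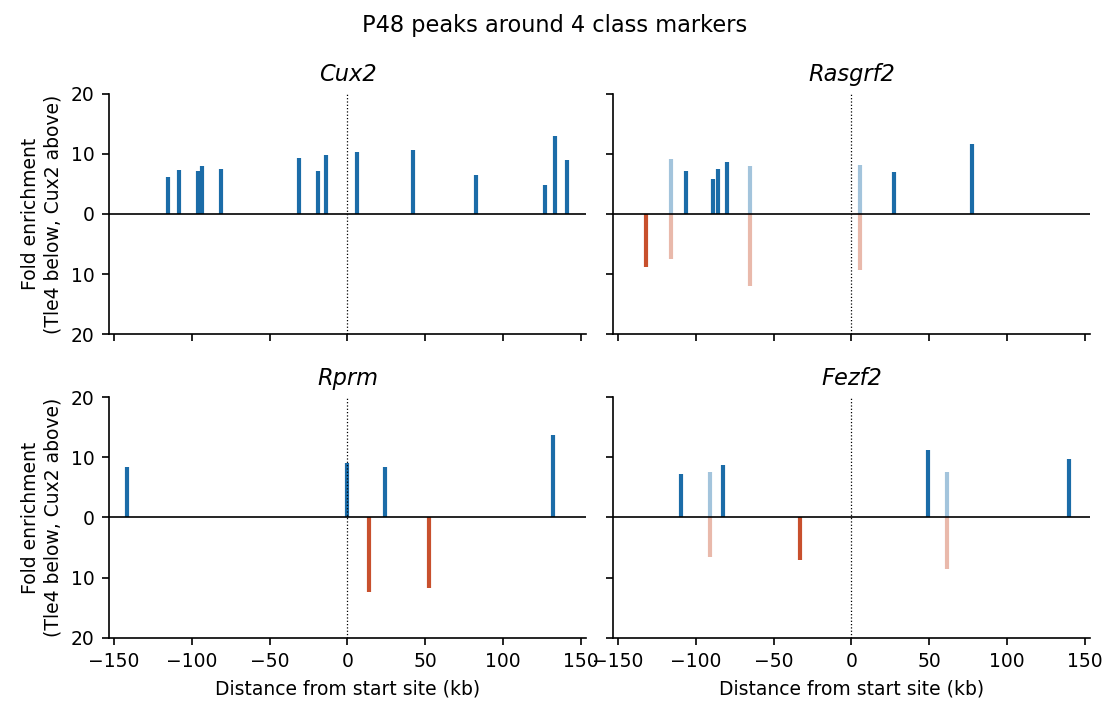
Peaks of P48 within 150 kb of the outermost start site of Cux2, Rasgrf2, Rprm and Fezf2, at their distance in the direction of transcription (x axis, kb), with bars of fold enrichment upward for the Cux2 CPN list (blue) and downward for the Tle4 CThPN list (red); pale bars are shared. Around Cux2 there are 14 Cux2-only peaks and no Tle4 peak, while Rprm has 2 Tle4-only and 4 Cux2-only peaks, Fezf2 has 1 and 4, and Rasgrf2 has 1 and 6.

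List length altered these counts. At equal length 12 of 20 upper layer markers had a Cux2-only peak (60%, background 41.1%) and 9 of 20 a Tle4-only peak (45%, background 50%). Of the corticothalamic markers 8 of 14 had a Cux2-only and 10 of 14 a Tle4-only peak (57.1% and 71.4%). The absence of Tle4-only peaks near upper layer markers thus rested on Cux2 peaks weaker than the 11836 strongest. Each list stayed above the background of its own class, but this was not particular to markers. At equal length 7 of 10 housekeeping genes had a Cux2-only and 7 of 10 a Tle4-only peak (70% each), and the corticothalamic markers also exceeded the Cux2-only background.

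Markers of cells other than pyramidal neurons were read as a check of the sort. Of 13 interneuron markers 12 had a Cux2-only peak (92.3%) and 0 a Tle4-only peak. Dlx5 and Dlx6, which encode homeodomain factors of interneurons, shared a Cux2-only peak with a fold enrichment of 17.0. Gad1 and Gad2, which encode the enzymes that make GABA, had 2 and 0 Cux2-only peaks. Astrocyte markers had a Cux2-only peak at 6 of 7, oligodendrocyte markers at 6 of 9, microglial at 6 of 6 and endothelial at 4 of 5 genes. Tle4-only peaks lay near 0, 2, 3 and 1 of these, Mbp, Mog, Aif1, Csf1r, P2ry12 and Kdr. No peak of either list lay within 100 kb of Aqp4, Olig1, Olig2 or Mag, which mark astrocytes and the oligodendrocyte lineage. The 3 of 6 microglial markers with a Tle4-only peak (50% against 16.5%) are near the 57.1% of corticothalamic markers, and 3 of the 10 Tle4 peaks near them were Tle4-only (30% against 10.3%). With a background of 84%, a Cux2-only peak within 100 kb does not set marker genes apart, and the part of other cells in the lists was not tested.

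Genes of neuronal function gave these counts. Activity-regulated genes had a Cux2-only peak at 16 of 16 and a Tle4-only peak at 2 of 16, Fosb and Bdnf. Of the 53 Tle4 peaks near these genes 2 were Tle4-only (3.77% against 10.3%), and at equal length 14 of 16 had a Tle4-only peak, where the background was 50%, so this contrast turned with list length. Glutamate receptor genes had a Tle4-only peak at 6 of 22, among them Gria1, Grin2d and Grik4 with 2 each. GABA-A receptor genes had one at 6 of 12, of which Gabrb2 had 2, while Gabra4 and Gabrb1 shared 1 peak and Gabra5 and Gabrg3 another. Synaptic adhesion genes had one at 5 of 16 and sodium and calcium channel genes at 5 of 18, among them Cacna1g with a fold enrichment of 12.6. Glutamatergic genes had one at 2 of 8 and housekeeping genes at 1 of 10. Against the 16.5% background the shares were 27.3% for glutamate receptor, 50% for GABA-A receptor and 31.25% for synaptic adhesion genes. They were 27.8% for sodium and calcium channel, 25% for glutamatergic and 10% for housekeeping genes. Summed over the GABA-A receptor genes, 7 of 19 Tle4 peaks were Tle4-only (36.8% against 10.3%). A peak counts there once for each gene it is near, so these are fewer different peaks. An excess of Tle4-only peaks over the background was thus not particular to corticothalamic markers.

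Assigned to the nearest protein-coding start site within 100 kb, Cux2-only peaks named 11037 genes and Tle4-only peaks 1231, of which 936 also had a Cux2-only peak. Those 936 were 76% of the Tle4-only genes, where 49.7% of all protein-coding genes had a Cux2-only peak by this assignment, and 8.48% of the Cux2-only genes, where 5.54% of all had a Tle4-only peak. The genes with the most Cux2-only peaks were long. Dlg2, which encodes a postsynaptic scaffold and spans 1945 kb, had 33, Kalrn, an exchange factor gene of dendritic spines, had 32, and Pde4d and Magi2 had 27 each. Odz4 had 25, Kcnma1, Prickle2 and Ank2 had 23 each, and Ptprd and Arhgap26 had 22 each. Of these 10 genes the shortest, Prickle2, spans 335 kb.

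No gene had more than 3 Tle4-only peaks. The 10 genes with 3 were Thrb, Rgs6, Pign, Thsd7b, Rnf152, Dscaml1, Rbfox1, Zfp831, Gadd45a and Kcnip4. Thrb, a thyroid hormone receptor gene, also had 10 Cux2-only peaks, and Rbfox1, a splicing factor gene of neurons, had 14. Each of these 10 genes had at least 1 Cux2-only peak as well.

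Cux2-only peaks also stood in runs, here peaks at most 20 kb apart with no Tle4 peak between them. There were 583 runs of at least 5 peaks, with 9.68% of the Cux2-only peaks, and 19 runs of at least 10. The longest held 13 peaks over 134 kb at chr6:88659063-88792686, across Mgll, which encodes an endocannabinoid-degrading lipase, with Podxl2 and Abtb1. There were 4 runs of 12 peaks, among them a run inside Kalrn, over 67.9 kb at chr16:34076221-34144161, and a run across Kcnc4 and Slc6a17, over 80.1 kb. The longest Tle4-only run held 3 peaks over 26.6 kb at chr1:107304279-107330921, nearest to Rnf152, and the next held 2 each, 1 of them at Celsr1. A list with 1858 peaks leaves little room for runs, and 0 Tle4-only runs reached 5 peaks.

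The fourth question was which short sequence cores lie under the distal peaks. Both strands of the 200 bp windows were searched in 29842 Cux2-only, 1711 Tle4-only and 5653 shared distal peaks, and the share over all 37206 distal windows of both lists is the reference. A match is a description of letters and not a bound site. Of 17 motifs 14 were more frequent in Cux2-only than in Tle4-only windows. The intervals of the 2 sets lay apart for 8 motifs, 7 higher in Cux2-only and 1 in Tle4-only windows.

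The E-box CAGATG was in 32% of Cux2-only (31.5% to 32.5%), 24.3% of Tle4-only (22.3% to 26.3%) and 27.6% of shared windows, with 31% over all. The AP-1 core was in 22.2%, 15.1% and 21.6%, with 21.8% over all, so for this core shared windows resembled Cux2-only ones. The POU core was in 2.84% (2.66% to 3.03%) of Cux2-only, 0.468% (0.237% to 0.92%) of Tle4-only and 1.73% of shared windows, with 2.56% over all. The ROR core TAGGTCA, bound by RORA and RORB, was in 1.6%, 0.409% and 0.69%, with 1.41% over all. The E-box CAGGTG (9.09% against 5.96%, 8.69% over all), the SOX core ACAAAGG (3.39% against 2.28%, 3.21% over all) and the FOX core TGTTTAC (1.66% against 0.935%, 1.54% over all) were also higher in Cux2-only windows. CAGGTG and the longer T-box core AGGTGTGA share some letters, so 1 site can match both.

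The CUX core ATCGAT went the other way. It was in 18 of 1711 Tle4-only windows (1.05%, 0.666% to 1.66%) and in 67 of 29842 Cux2-only windows (0.225%, 0.177% to 0.285%), with 0.265% of shared windows and 0.269% over all. Tle4-only windows had the lower GC by 1.5 points, and whether base composition contributes was not tested. The 8 cores kept their direction at equal length and in windows of 100 bp. Both settings reuse the peaks from which the 8 were picked, so a kept direction is no independent check. The intervals overlapped at equal length for CAGGTG (7.83% against 6.96%), SOX (3.2% against 2.54%) and FOX (1.41% against 1.05%). At equal length the POU core was in 3.37% against 0.875%, the ROR core in 1.77% against 0.539% and the CUX core in 0.132% against 0.629%. The CTCF motif changed sides, from 2.71% of Cux2-only against 2.1% of Tle4-only windows to 0.809% against 4.22%.

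**Figure D5:**
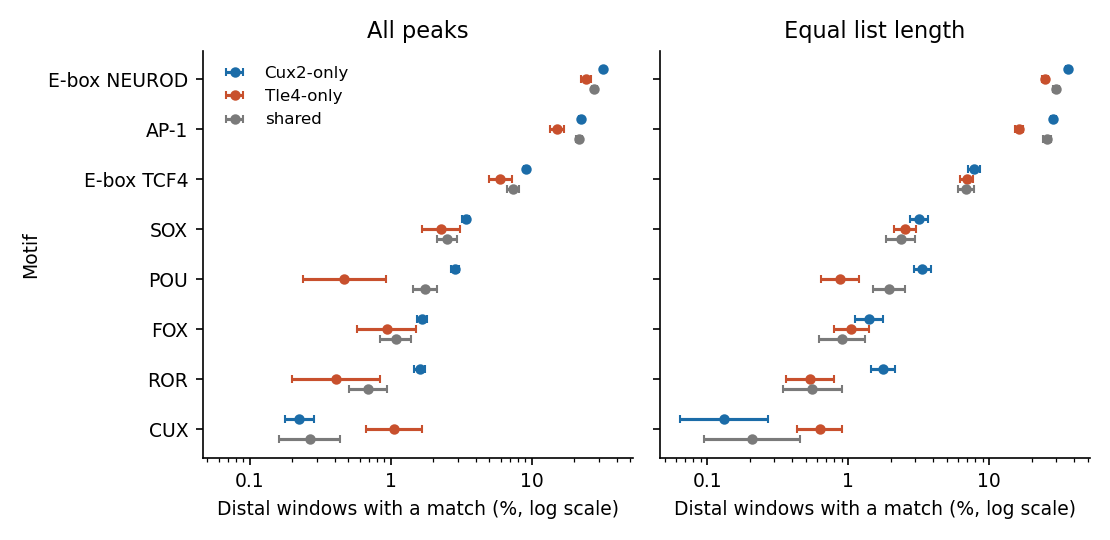
Share of distal 200 bp windows with a match (x axis, percent, log scale, with Wilson 95% intervals) for the 8 motifs whose intervals lay apart (y axis), in Cux2-only (blue), Tle4-only (red) and shared (grey) peaks, with all peaks (left) and at equal list length (right). POU and ROR matches lie to the right in Cux2-only windows and CUX matches to the right in Tle4-only windows in both panels.

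The same contrast was made at each other age, from that age's own whole lists. It was not repeated there at equal length, and the Cux2 list was the longer at each age. The POU core was more frequent in Cux2-only windows at 5 of 5 other ages, by 2.21 to 2.96 percentage points against 2.37 at P48. CAGGTG and the SOX and FOX cores were also higher in Cux2-only windows at 5 of 5, the ROR core was higher at 4 of 5 with -0.0676 points at E18.5, and the CUX core was higher in Tle4-only windows at 5 of 5, with Cux2-only minus Tle4-only differences of -1.61 to -0.291 points. The AP-1 core differed with age. At E18.5, P1, P3 and P7 it was in 6.62% to 7.55% of Cux2-only and 6.98% to 7.35% of Tle4-only windows, with differences from -0.731 to 0.256 points. At P21 it was in 23.6% against 11.7%, near the P48 shares. CAGATG differed by 6.58 points at E18.5, -0.0391 at P1, 1.24 at P3, 1.38 at P7 and 8.42 at P21. These ages repeat the contrast with other libraries, while sites that persist are counted at several ages.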

How the data were processed

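ATAC-seq reads were aligned by the authors to NCBI37 with Bowtie2, duplicates were removed with Picard, and peaks were called with MACS2 and kept where the 2 replicates of a group were reproducible (irreproducible discovery rate at most 0.1). The deposited lists hold 1 row per peak with its fold enrichment, its −log10 p and its other value, the summit offset, per the labels and values. Each list pools 2 replicates, so no test between the lists was possible, and the reads behind each list were not analysed here.

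Peaks on chromosomes 1 to 19 and X were intersected in Python 3.11.15 (pandas 2.3.3, pysam 0.24.0). For equal list length, Cux2 peaks were ranked by −log10 p. Promoters were within 1 kb of any start site of the GENCODE annotation on NCBIM37, and genes had a start site within 100 kb. Wilson intervals cover 95%. Presence at the 5 other ages was compared by an exact two-sided sign-flip permutation test. Scripts were tested on simulated data. The members, the 16 gene lists and the 17 motifs were chosen with earlier results of these data known. Genes named are class-only neighbours among the class markers, the 10 genes with the most class-only peaks of each kind, the 3 strongest peaks or largest rank shifts per set, the 3 longest runs, and list members where 5 or fewer were counted. Other list genes with values in the text, such as Dlx5, Dlx6, Gad1, Gad2, the glutamate and GABA-A receptor genes and Cacna1g, were chosen after their values were seen. A few items are not reported here.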

Additional observations from a re-analysis of the deposited data

Results flagged for a closer look

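The share of Cux2-only peaks that were overlapped in the Cux2 list of P21, 61.6%, stood apart from the other 4 ages by Dixon's ratio (0.755 against a critical value of 0.71). The difference between the own and the other class at P21, 59.3 percentage points, also stood apart (0.744). These were 2 of 6 measures tested over 5 ages, and chance alone sets apart about 1 group in 20.

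Peaks on the mitochondrial chromosome were outside the comparisons. The Cux2 list of P48 held 5 of them and the Tle4 list 4, more than the 3 used as the limit for a flag. All 12 lists of the series held such peaks, 5 to 7 in the Cux2 and 2 to 7 in the Tle4 lists. The P48 counts were therefore not unusual for the series.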

How the results depend on the processing

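The shares of class-only peaks changed with list length, and at equal length they are nearly equal by construction. Cux2-only and Tle4-only peaks were 78% and 15.7% of their lists with all peaks, 50.7% and 50.6% at equal length, 51% each at a length of 5918 peaks, 56.8% each when ranked by fold enrichment, and 70.3% and 24% with a common minimum −log10 p. With a peak within 500 bp counted as shared, the Cux2-only share was 77.6%. The stronger 50% of each list gave 78.6% and 17.7%.

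Promoter shares of Cux2-only, Tle4-only and shared peaks were 14.2%, 6.46% and 42.3% within 500 bp of a start site, and 14.7%, 6.73% and 42.1% with protein-coding start sites alone. At equal length they were 11.4%, 25.7% and 50.8%, and the Cux2-only minus Tle4-only difference reversed from 8.25 to -14.3 points. Nearest genes then numbered 3402 for Cux2-only and 3969 for Tle4-only peaks. A Cux2-only peak lay near 12 upper layer and 8 corticothalamic markers and a Tle4-only peak near 9 upper layer markers.

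Leaving out 1 of the 5 ages moved the mean presence difference between 9.45 and 23.4 points for Cux2-only and between 6.98 and 10.3 points for Tle4-only peaks. These exact tests cannot pass 0.05 at any setting, so the presence differences could be labelled changed only if their sign reversed. Shares and motif differences were judged by their intervals, and counts by their ratio to the main value. Of 88 alternative values 56 were labelled unchanged by these rules, 31 moved and 1, the promoter difference, reversed. Beside it the CTCF difference, whose intervals overlapped with all peaks, changed sign from 0.61 to -3.41 points at equal length, as did the smaller Homeobox (0.64 to -0.25) and NFI (0.010 to -0.022) differences. No paired analysis was possible because each list pools its replicates. Neither the depth nor the replicate spread can be read from the lists, and intervals cover counting error only.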
